A study of Mus musculus with 10 samples.

Results

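The cortical excitatory layer markers described here are 9 genes, Slc17a7, Neurod2, Neurod6, Tbr1, Cux2, Rorb, Fezf2, Bcl11b and Foxp2, taken by symbol from a table of 78317 genes, and each of the 9 symbols matched 1 row. Their levels were measured by poly(A) RNA sequencing of medial prefrontal cortex (mPFC) tissue, isolated as punches of 1 mm diameter from wild-type mice. The control group was 5 libraries, numbered 3, 4, 5, 7 and 9, from mice injected with a control adeno-associated virus (AAV). The other group was 5 libraries, numbered 13, 14, 15, 17 and 18, from mice given an AAV that overexpresses the microRNA miR-130a-3p, and all mice therefore carried an AAV. The labels give no age, promoter, serotype or time after injection, and they describe the tissue as mixed cell types. The values are TPM, transcript abundances scaled for transcript length and for the library total, which can be compared between genes. The number of reads behind a TPM value is unknown.

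Excitatory neurons of the cortex release glutamate and are arranged in layers that differ in their projections. Upper-layer neurons connect mainly within the cortex and across the corpus callosum, deep-layer neurons send axons to the brainstem, spinal cord and thalamus, and transcription factors set up and maintain these identities. The mPFC of rodents lacks the distinct granular layer 4 of sensory cortex. In bulk tissue, fewer cells of a type and less RNA per cell cannot be told apart.

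The sequences below show the overexpressed microRNA and the sites for it that were found in these markers, because a microRNA pairs through its seed with the 3′ untranslated region (UTR) of a target. The mature mouse sequence is from RefSeq (GRCm38.p6), 5′ to 3′, with bases 2 to 8, the seed, in capitals. The longest annotated 3′ UTR of each marker in GENCODE M21 transcripts was searched on the transcript strand for TTGCACT, which pairs with the whole seed, for TGCACTA, which pairs with all but its last base and adds an A, and for their overlap TTGCACTA. In the 2 site sequences, capitals mark the match to TTGCACT.
miR-130a-3p: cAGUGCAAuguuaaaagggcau
Slc17a7 site: caaatccTTGCACTttattct
Rorb site: gcagatgTTGCACTgaatctg
The Slc17a7 site lay at bases 792 to 798 of a 3′ UTR of 1098 bases, and the Rorb site at bases 2948 to 2954 of 7275 bases, counted from the first base after the stop codon. The other 7 markers held 0 of these matches in UTRs of 402 bases (Fezf2) to 4997 bases (Bcl11b). A match to TTGCACT was present in 12.3% of the 13307 tested genes with an annotated 3′ UTR, and any of the 3 matches in 16.8%. A match describes these letters only.

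None of the 9 markers passed the test of a difference between the groups, against 13.5% of all tested genes (11.3% toward lower and 2.19% toward higher values with miR-130a). Groups were compared with limma on log2(TPM + 1) over 15680 genes averaging at least 1 TPM, p-values were adjusted by Benjamini-Hochberg and held to 0.05, and all 9 markers entered the test. At an unadjusted p under 0.05 there were 2 of 9, Neurod6 toward higher and Neurod2 toward lower values, against 28.4% of all genes. By an exact 2-sided permutation test of the libraries on the same differences, Neurod6 and Neurod2 had unadjusted p-values under 0.05. That test was run for listed genes only, so no share of all genes stands beside it. For 0 of the 9 were the ranges of the groups apart, against 11.3% of all genes. Of the 9 differences 5 were negative and 4 positive, with a median of −0.03. Over all tested genes 9973 were negative and 5707 positive, with a median of −0.09. P-values here measure the spread between libraries, since the labels do not say how many mice stand behind each one.

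**Figure D1:**
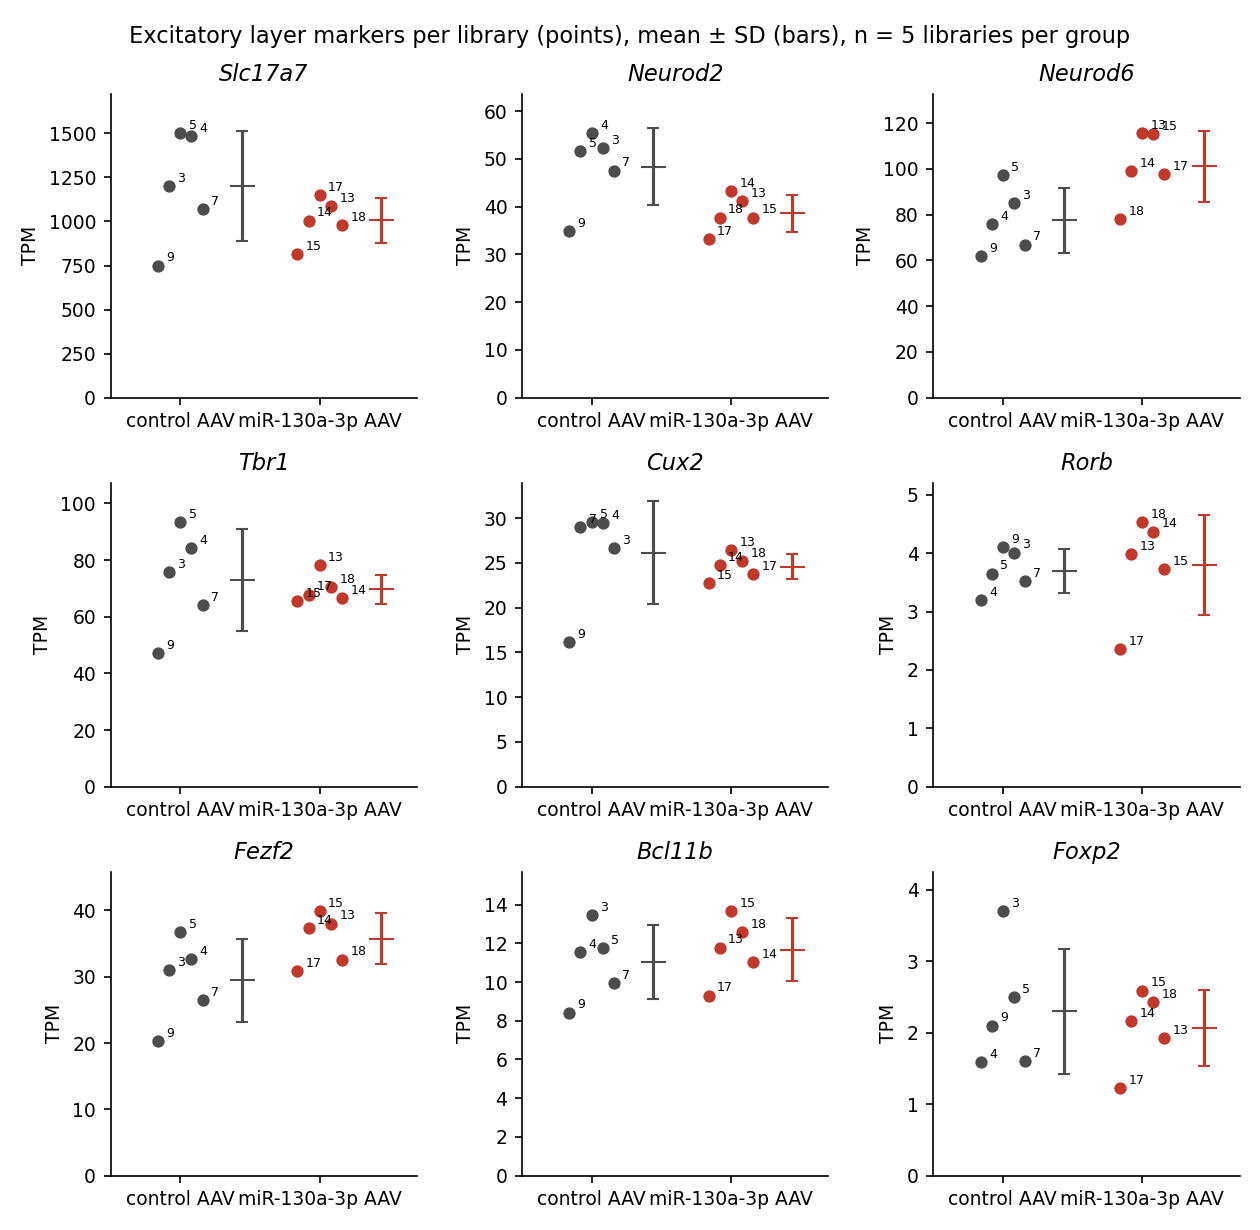
TPM of the 9 markers (vertical axes, each from 0) in 5 control and 5 miR-130a-3p libraries, numbered as in the labels, with the mean ± SD beside the points. The groups overlap in every panel, and control library 9 is the lowest of the 10 libraries for 6 of the 9 markers.

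Over the 10 libraries, the most abundant marker was Slc17a7 at 1104 ± 247 TPM (SD, n = 10). It was followed by Neurod6 at 89.2 ± 18.7, Tbr1 at 71.3 ± 12.6, Neurod2 at 43.5 ± 7.85, Fezf2 at 32.6 ± 5.93 and Cux2 at 25.4 ± 4.03 TPM (SD, n = 10 each). Bcl11b was at 11.3 ± 1.71, Rorb at 3.75 ± 0.629 and Foxp2 at 2.18 ± 0.691 TPM (SD, n = 10 each). Neighbours in this order had separate ranges only between Slc17a7 and Neurod6, between Cux2 and Bcl11b, and between Bcl11b and Rorb. Between the other neighbours the ranges overlapped, although Tbr1 was above Neurod2 and Rorb above Foxp2 in all 10 libraries, and the order of each remaining pair held in 9 of 10.

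Slc17a7 encodes VGLUT1, the transporter that loads glutamate into synaptic vesicles of cortical excitatory neurons. In control libraries 3, 4, 5, 7 and 9 it was at 1202, 1485, 1501, 1069 and 750.0 TPM. In miR-130a libraries 13, 14, 15, 17 and 18 it was at 1087, 1005, 814, 1149.5 and 977 TPM. The 5 miR-130a values lay inside the control range, below the 3 highest controls. The log2 difference was −0.22 (SE 0.18, 95% interval −0.62 to 0.18; limma adjusted p = 0.470). It became a decrease of −0.47 past the threshold without control libraries 7 and 9 (limma adjusted p = 0.0371), a setting in which 15.6% of all genes passed as lower. Control libraries 7 and 9 were its lowest controls, so leaving them out could only move the difference toward lower values. The difference was −0.38 without control 9 alone (limma adjusted p = 0.0652), −0.13 without control 4 or 5, −0.15 without miR-130a library 15, and −0.10 after median-ratio scaling (limma adjusted p = 0.716, 0.718, 0.685 and 0.734).

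Control libraries 7 and 9 were left out together because earlier results on these data had set them apart. These libraries were the lowest controls for Slc17a7, Neurod2, Neurod6, Tbr1, Fezf2 and Bcl11b. Leaving them out could therefore only move the differences of those markers toward lower values. Over all tested genes, control library 9 correlated least with its group, at a mean Pearson r of 0.934 where the other 9 libraries had 0.955 to 0.971. It was the lowest of all 10 libraries for Slc17a7, Neurod6, Tbr1, Cux2, Fezf2 and Bcl11b. For Rorb it was instead the highest control. Libraries 7 and 9 also had the highest summed levels of 10 microglial genes, 3278 and 3656 TPM, where the other controls had 1798 to 2561 TPM and the miR-130a libraries 669 to 978 TPM. Of those 10 genes 9 were lower in the miR-130a group, where 11.3% of all tested genes were. None was higher, and 0 were at 0 TPM in any library. Whether this played a part in the marker values was not tested.

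**Figure D2:**
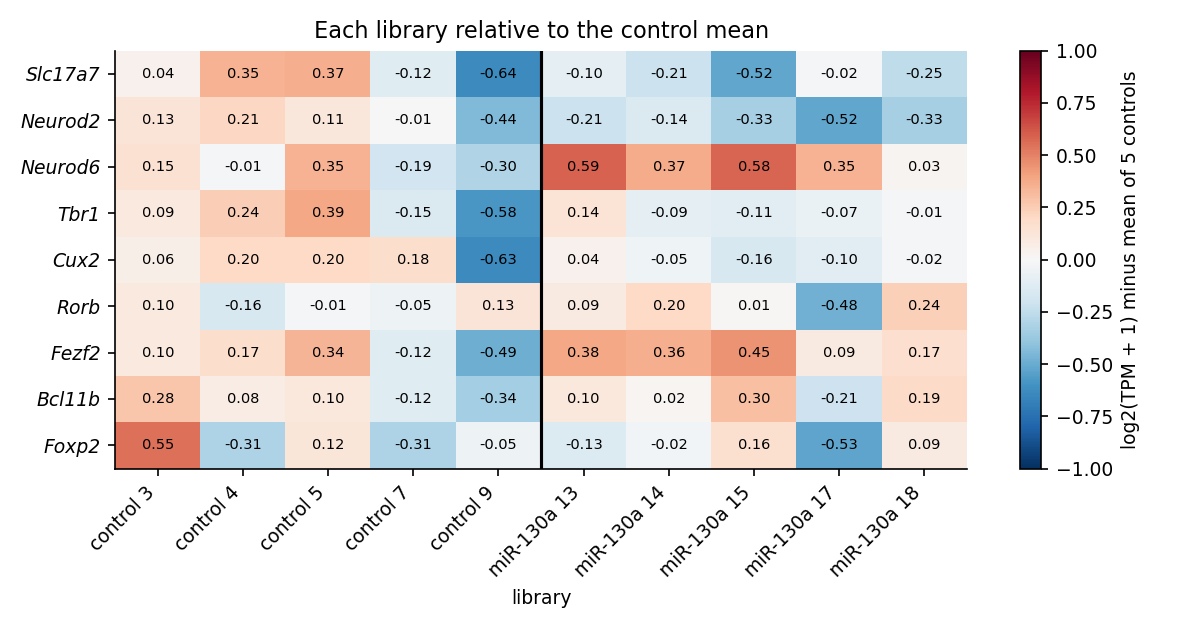
Difference of each library (columns) from the mean of the 5 controls on the log2(TPM + 1) scale, for the 9 markers (rows). Control 9 is between 0.30 and 0.64 below the control mean for 7 markers, and Neurod6 and Fezf2 are above it in all 5 miR-130a libraries.

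Neurod2 and Neurod6 encode related basic helix-loop-helix transcription factors that act in differentiating and mature cortical excitatory neurons. Their differences had opposite signs, and neither passed. Neurod2 was at 52.3, 55.4, 51.6, 47.5 and 35.0 TPM in control libraries 3, 4, 5, 7 and 9. It was at 41.1, 43.2, 37.7, 33.1 and 37.7 TPM in miR-130a libraries 13, 14, 15, 17 and 18. Every miR-130a library lay below 4 of the 5 controls, and the groups overlapped only through control library 9. The difference was −0.31 on the log2 scale (SE 0.13, 95% interval −0.59 to −0.03), which did not pass (limma adjusted p = 0.135; unadjusted p = 0.0330; exact permutation p = 0.0476). Without control library 9 it was −0.42 and passed (limma adjusted p = 0.00943), in a setting where 18.6% of all genes passed as lower. Without control libraries 7 and 9 it was −0.46 (limma adjusted p = 0.0148). It was smaller, at −0.19, after median-ratio scaling and after quantile normalization (limma adjusted p = 0.232 and 0.248).

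Neurod6 was at 85.1, 75.9, 97.3, 66.9 and 61.9 TPM in control libraries 3, 4, 5, 7 and 9. In miR-130a libraries 13, 14, 15, 17 and 18 it was at 115.6, 98.9, 115.1, 97.6 and 78.1 TPM. Of the miR-130a libraries 4 lay above all controls, and library 18 lay between controls 4 and 3. The log2 difference was 0.38 (SE 0.14, 95% interval 0.07 to 0.70), which did not pass (limma adjusted p = 0.0994; unadjusted p = 0.0200; exact permutation p = 0.0397). It passed without miR-130a library 18 (0.47, limma adjusted p = 0.0488), where 2% of all genes passed as higher, and was 0.22 without control libraries 7 and 9 (limma adjusted p = 0.2998). It also passed in 2 of the 5 other scalings, and its limma adjusted p was 0.0798 after protein-coding rescaling, 0.0581 after rescaling without mitochondrially encoded genes and 0.136 centred on pan-neuronal genes. The median difference of all genes was −0.09 as deposited, 0.01 after median-ratio scaling, where 5.52% of genes passed as higher, and 0.05 after quantile normalization, where 6.83% did. The genes that passed were 1767 lower and 343 higher as deposited, 1198 and 866 after median-ratio scaling, and 1046 and 1071 after quantile normalization. The Neurod6 difference was then 0.50 (limma adjusted p = 0.0219) and 0.47 (limma adjusted p = 0.0283).

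Tbr1 and Cux2 differed by little between the groups, with wide spread among the controls. Tbr1, a T-box factor of layer 6 corticothalamic and early-born neurons, was at 75.9, 84.3, 93.4, 64.1 and 47.1 TPM in control libraries 3, 4, 5, 7 and 9. It was at 78.3, 66.5, 65.6, 67.8 and 70.5 TPM in miR-130a libraries 13, 14, 15, 17 and 18. The miR-130a values fell in a narrow band inside the control range. The log2 difference was −0.03 (95% interval −0.38 to 0.32; limma adjusted p = 0.934). It took the other sign under median-ratio scaling, quantile normalization and scaling without mitochondrially encoded genes, and was −0.27 without control libraries 7 and 9 (limma adjusted p = 0.0719).

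Cux2, a homeodomain factor of layers 2 to 4, was at 26.7, 29.4, 29.6, 29.0 and 16.1 TPM in control libraries 3, 4, 5, 7 and 9. In miR-130a libraries 13, 14, 15, 17 and 18 it was at 26.4, 24.7, 22.7, 23.7 and 25.2 TPM. All 5 miR-130a values lay below 4 of the 5 controls, and control 9 lay below all of them. The log2 difference was −0.06 (95% interval −0.39 to 0.28; limma adjusted p = 0.850), and it was −0.22 without control 9 (limma adjusted p = 0.0617). It took the other sign under the same 3 scalings as that of Tbr1. The SD of the log2 values of Cux2 was 0.36 in controls, 0.07 in controls without library 9, and 0.08 in miR-130a libraries, beside medians over all tested genes of 0.23, 0.18 and 0.21.

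Fezf2 encodes a zinc-finger factor that specifies subcerebral projection neurons of layer 5. It was at 31.0, 32.7, 36.7, 26.4 and 20.3 TPM in control libraries 3, 4, 5, 7 and 9. It was at 38.01, 37.4, 39.9, 30.8 and 32.6 TPM in miR-130a libraries 13, 14, 15, 17 and 18. Libraries 13, 14 and 15 were above all controls, and libraries 17 and 18 were among them. The log2 difference was 0.29 (SE 0.15, 95% interval −0.03 to 0.61), which did not pass (limma adjusted p = 0.220; exact permutation p = 0.0873). It passed after median-ratio scaling (0.41, limma adjusted p = 0.0349) and quantile normalization (0.42, limma adjusted p = 0.0419), and was 0.17 without control 9 (limma adjusted p = 0.304) and 0.09 without control libraries 7 and 9 (limma adjusted p = 0.610).

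Bcl11b encodes CTIP2, a zinc-finger factor of corticospinal and other layer 5 output neurons that is also present in striatal and some inhibitory neurons. It was at 13.4, 11.6, 11.8, 9.95 and 8.42 TPM in control libraries 3, 4, 5, 7 and 9. It was at 11.8, 11.1, 13.7, 9.30 and 12.6 TPM in miR-130a libraries 13, 14, 15, 17 and 18. Library 15 was above all controls, and the other 4 miR-130a libraries were among them. The log2 difference was 0.08 (95% interval −0.21 to 0.38; limma adjusted p = 0.748), and it was −0.07 without control libraries 7 and 9 (limma adjusted p = 0.745).

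The remaining markers were the least abundant. Rorb, a nuclear receptor gene of layer 4 and layer 5, was at 4.01, 3.19, 3.65, 3.52 and 4.11 TPM in control libraries 3, 4, 5, 7 and 9. It was at 3.99, 4.37, 3.72, 2.36 and 4.53 TPM in miR-130a libraries 13, 14, 15, 17 and 18, of which library 17 was below all controls and libraries 14 and 18 above them. Foxp2, a forkhead factor of layer 6 corticothalamic neurons and of striatal neurons, was at 3.70, 1.59, 2.50, 1.60 and 2.10 TPM in the controls in the same order. It was at 1.93, 2.16, 2.59, 1.23 and 2.43 TPM in the miR-130a libraries. Library 17 was again the lowest, and control library 3 the highest. The log2 differences were 0.01 for Rorb (95% interval −0.32 to 0.34; limma adjusted p = 0.970) and −0.09 for Foxp2 (95% interval −0.52 to 0.35; limma adjusted p = 0.826). For Rorb the sign turned on leaving out single libraries and on centring on neuronal genes. For Foxp2 it turned without control 3, without miR-130a library 17 and after quantile normalization.

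The balance among the markers was read from ratios within a library, in which any scaling factor of that library cancels. On the log2(TPM + 1) scale of the tests it cancels closely but not fully for low genes. These ratios were chosen after the values above had been seen. The ratio of Neurod6 to Neurod2 was 1.63, 1.37, 1.88, 1.41 and 1.77 in control libraries 3, 4, 5, 7 and 9. It was 2.81, 2.29, 3.05, 2.95 and 2.07 in miR-130a libraries 13, 14, 15, 17 and 18. All 5 miR-130a values were above all 5 control values, with means of 2.63 ± 0.431 and 1.61 ± 0.223 (SD, n = 5 each). The ratio of Fezf2 to Neurod2 was 0.593, 0.591, 0.711, 0.556 and 0.582 in the controls. It was 0.926, 0.864, 1.06, 0.931 and 0.864 in the miR-130a libraries. This ratio was also without overlap, with means of 0.929 ± 0.0791 and 0.606 ± 0.0604 (SD, n = 5 each).

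Each tested gene was then measured against Neurod2 as a difference of log2(TPM + 1) values and compared between the groups with limma, adjusted over all 15679 genes. Of the 8 other markers 2 passed, both higher relative to Neurod2, where 11.3% of all genes passed and 9.67% passed as higher. They were Neurod6 (difference 0.69, SE 0.14, 95% interval 0.40 to 0.99; limma adjusted p = 0.0172) and Fezf2 (0.60, SE 0.10, 95% interval 0.38 to 0.82; limma adjusted p = 0.0119). Between the groups Neurod2 had the most negative difference of the markers (−0.31), and Neurod6 and Fezf2 the most positive (0.38 and 0.29). Measured against Neurod2, these 2 markers therefore had to show the largest differences. The adjustment over genes does not cover the choice of reference, so these p-values are no separate result. Bcl11b relative to Neurod2 did not pass (0.39, limma adjusted p = 0.0593). Its ranges were apart on the log2(TPM + 1) scale, as were those of Neurod6 and Fezf2, 3 of 8 markers where 9.79% of all genes were apart, but its TPM ratios touched, at up to 0.257 in controls and from 0.256 in miR-130a libraries. The Fezf2 to Neurod2 difference stayed past the threshold in all 23 alternative settings tried, between 0.55 and 0.66. That of Neurod6 to Neurod2 missed it in 1 of 23, without control library 7 (0.65, limma adjusted p = 0.0568). Some of these settings rescale or centre whole libraries. Such a step cancels or nearly cancels in a ratio, so those settings could not test either difference. All of the settings kept the same chosen pairs, so none of them tested that choice.

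With Fezf2 as the reference, Slc17a7, Neurod2, Tbr1 and Cux2 were lower relative to it, 4 of 8 markers where 38.6% of all genes passed and 38.4% were lower. The ranges of Neurod2, Tbr1 and Cux2 relative to Fezf2 were apart, 3 of 8 markers where 24.1% of all genes were. With Neurod6 as the reference the same 4 markers were lower, where 49.1% of all genes passed and 48.9% were lower. These shares for all genes are close to those of the markers. With Slc17a7, Tbr1, Cux2, Rorb, Bcl11b and Foxp2 as the reference 0 of the 8 other markers passed in limma, where 0.0702%, 0.472%, 1.28%, 5.51%, 10.5% and 2.1% of all genes did. Relative to Slc17a7 the unadjusted p was under 0.05 for Neurod6 (0.61, limma adjusted p = 0.208) and Fezf2 (0.51, limma adjusted p = 0.233), and neither passed. The share of all genes under that unadjusted threshold was not computed for this reference, so nothing can be read from this count. Of all 36 pairs 8 passed under some choice of reference. Of these, 2 passed whichever of the pair was the reference, Neurod6 with Neurod2 and Fezf2 with Neurod2. How often pairs among all tested genes pass in this way was not computed, so these counts cannot be set against a share of all genes.

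**Figure D3:**
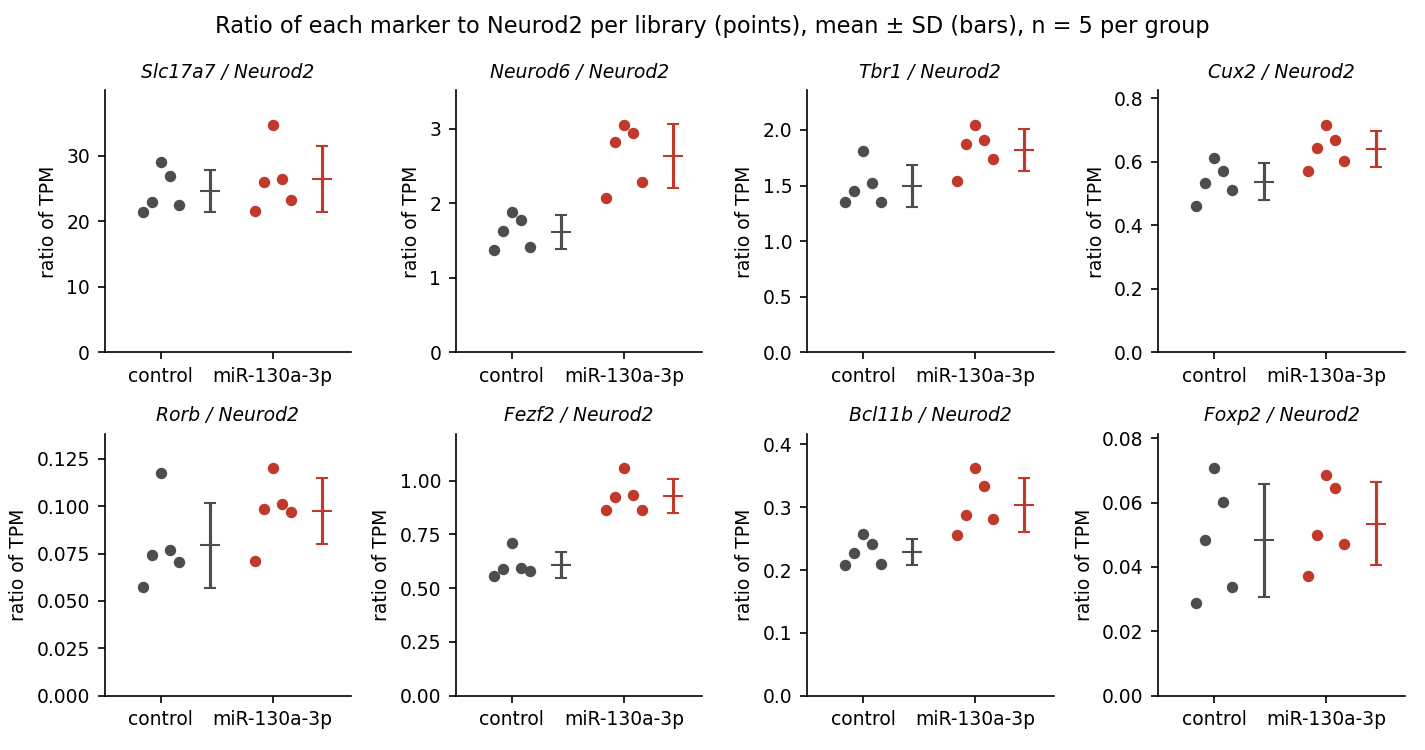
Ratio of the TPM of each marker to that of Neurod2 in every library (vertical axes, each from 0), by group, with mean ± SD beside the points, n = 5 per group. The ratios of Neurod6 and Fezf2 do not overlap between the groups, those of Bcl11b touch at 0.256 and 0.257, and those of the other 5 markers overlap.

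Other genes of cortical excitatory neurons were read from 4 lists with 55 genes, of which 54 were tested. Of these, 3 passed toward lower and 1 toward higher values in the miR-130a group, against 11.3% and 2.19% of all tested genes. Without control library 9, 8 were lower, where 18.6% of all genes were. Without control libraries 7 and 9, 7 were lower, where 15.6% of all genes were. Without miR-130a library 17, 2 were higher, where 2.35% of all genes were. Of 13 tested genes of layers 2 to 4 and callosal identity, 1 was lower, 12 did not pass and 0 were higher, with a median log2 difference of −0.03. Cux1, a homeodomain factor related to Cux2 that is found in upper layers and also widely outside neurons, was at 40.4, 54.3, 52.0, 46.6 and 34.1 TPM in control libraries 3, 4, 5, 7 and 9. It fell to 30.8, 28.7, 25.7, 30.5 and 35.2 TPM in miR-130a libraries 13, 14, 15, 17 and 18 (log2 difference −0.56, SE 0.13; limma adjusted p = 0.0174). Only library 18 reached into the control range, above control 9. Mef2c, a transcription factor of excitatory neurons and microglia, was at 219 ± 19.5 and 264 ± 36.8 TPM, and Stard8 at 21.6 ± 5.71 and 15.8 ± 2.76 TPM (SD, n = 5 each), both without passing (limma adjusted p = 0.152 and 0.158).

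Of 14 layer 5 genes, 1 was higher, 0 were lower and 13 did not pass, with a median of 0.14 and positive differences in 11. Among all 15680 tested genes 5707 differences were positive. Crym, which encodes the thyroid hormone binding protein mu-crystallin and is enriched in deep-layer output neurons, was at 141, 115.5, 113.6, 97.6 and 99.0 TPM in control libraries 3, 4, 5, 7 and 9. It rose to 204, 153, 199, 196 and 137 TPM in miR-130a libraries 13, 14, 15, 17 and 18 (log2 difference 0.64, SE 0.14; limma adjusted p = 0.0122). Only control 3 reached above the lowest miR-130a library. Npr3, a natriuretic peptide receptor of layer 5 output neurons, was at 2.40 ± 0.382 and 3.85 ± 1.12 TPM, and Crim1, a transmembrane protein of corticospinal neurons, at 21.1 ± 4.17 and 26.8 ± 4.06 TPM (SD, n = 5 each), and neither passed (limma adjusted p = 0.0672 and 0.142). After median-ratio scaling and after quantile normalization 3 layer 5 genes were higher, where 5.52% and 6.83% of all genes passed as higher.

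Of 15 layer 6 genes, 2 were lower and 13 did not pass, with a median of −0.19 and negative differences in 12. Negative differences were also the majority among all tested genes, 9973 of 15680, with a median of −0.09. Osr1, a zinc-finger factor also known from fibroblasts of the meninges, was at 3.44, 4.27, 2.20, 3.07 and 3.35 TPM in control libraries 3, 4, 5, 7 and 9. It fell to 1.88, 1.49, 1.88, 0.88 and 1.48 TPM in miR-130a libraries 13, 14, 15, 17 and 18, all below the controls (log2 difference −0.76, SE 0.17; limma adjusted p = 0.0150). Sla, an adaptor protein also known from lymphocytes and myeloid cells, was at 10.9, 8.27, 7.11, 10.9 and 13.9 TPM in the controls in the same order. It fell to 5.44, 5.24, 7.44, 5.81 and 6.55 TPM in the miR-130a libraries, of which 1 reached into the control range (−0.64, SE 0.16; limma adjusted p = 0.0251). The call of Sla was lost in 9 of 23 alternative settings, among them leaving out control library 3 or 7 or miR-130a library 13 or 14 (limma adjusted p = 0.0613, 0.0672, 0.0672 and 0.0696), and its adjusted p reached 0.147 when centred on pan-neuronal genes. That of Osr1 was lost only in that centring (limma adjusted p = 0.0534), and Osr1 was below the alternative filter of 5 TPM. Both genes moved beside lists of other cells. The summed level of 10 vascular and fibroblast genes was 304 to 378 TPM in controls and 201 to 264 TPM in miR-130a libraries. Of these genes 9 of 10 were lower, where 11.3% of all tested genes were, and 0 were at 0 TPM in any library. The summed level of microglial genes is given above. The part of those cells in Osr1 and Sla was not tested. Foxp1, a relative of Foxp2, was at 33.7 ± 6.96 and 25.1 ± 4.04 TPM, and Rprm, a layer 6 marker named reprimo, at 67.4 ± 16.6 and 55.8 ± 6.30 TPM (SD, n = 5 each), neither past the threshold (limma adjusted p = 0.115 and 0.315). Without control libraries 7 and 9, 4 layer 6 genes were lower, where 15.6% of all genes were.

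Of 12 general genes of forebrain excitatory neurons 0 passed in limma, with a median of −0.12. An unadjusted p under 0.05 was found for 2 of the 12, against 28.4% of all tested genes. Nptx1, a secreted pentraxin of excitatory synapses, was at 121 ± 31.2 and 79.6 ± 15.5 TPM, and Emx2, a homeodomain factor of the developing cortex, at 6.41 ± 0.981 and 8.66 ± 1.87 TPM (SD, n = 5 each; limma adjusted p = 0.0738 and 0.114).

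**Figure D4:**
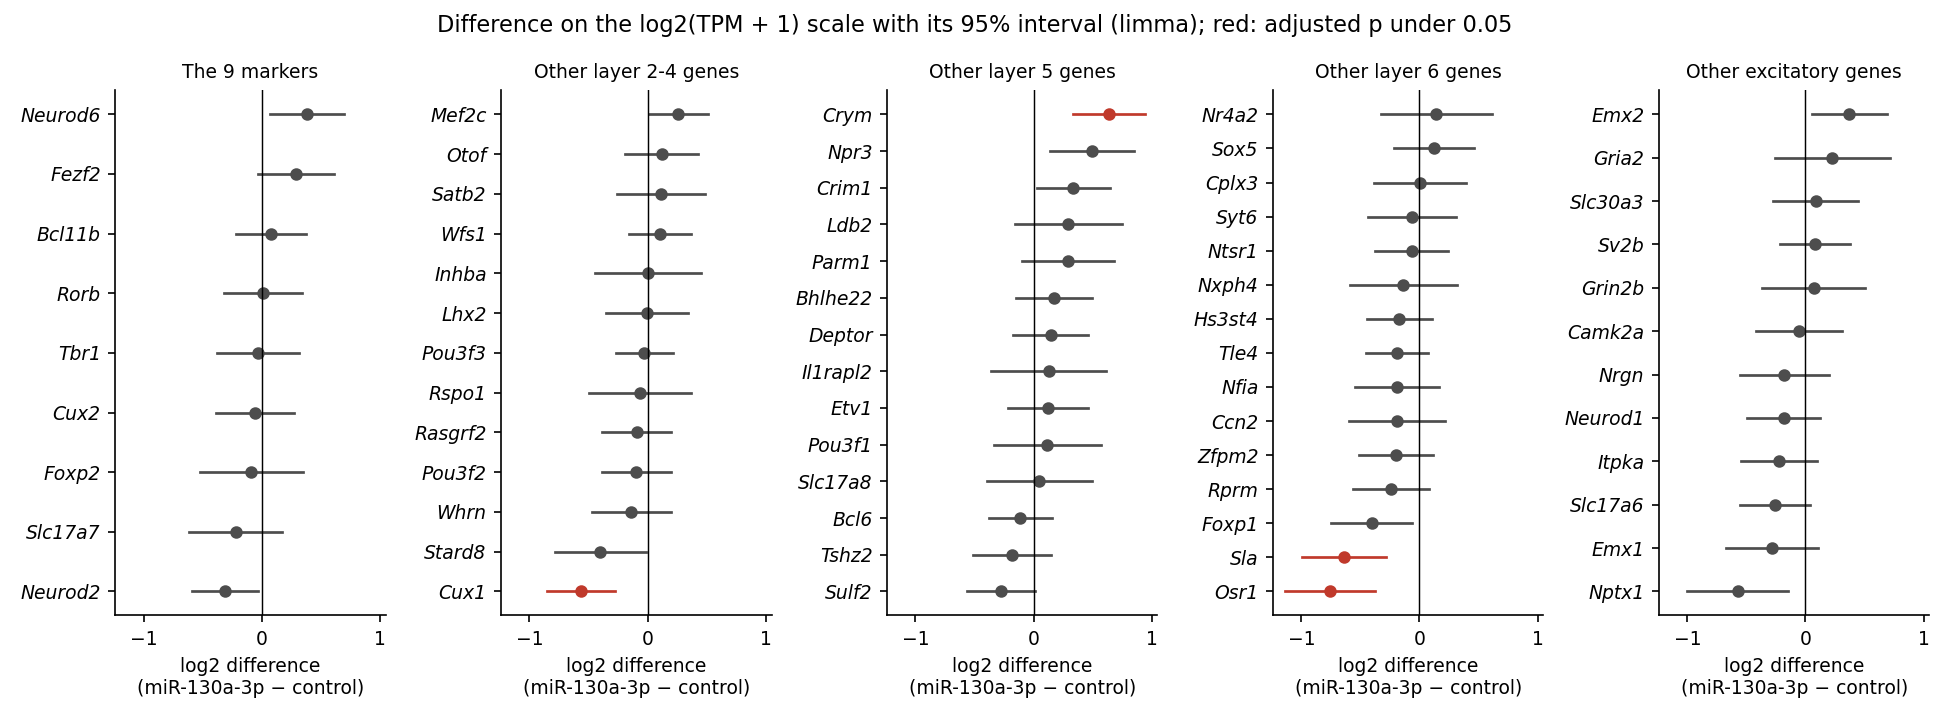
Difference between the groups on the log2(TPM + 1) scale (horizontal axes, miR-130a-3p minus control) with its 95% interval from limma, for the 9 markers and the 4 lists of other excitatory genes. Cux1, Crym, Osr1 and Sla, in red, passed the adjusted threshold, and the 9 markers did not.

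Pan-neuronal genes, which excitatory neurons share, and markers of other cells in the punches were measured alongside. Of all tested genes 11.3% passed as lower and 2.19% as higher, and 28.4% had an unadjusted p under 0.05. Of 12 pan-neuronal genes 0 passed in limma and 1 had an unadjusted p under 0.05, and their summed level was 4012 to 6752 TPM in controls and 5651 to 6632 TPM in miR-130a libraries. Centred on these genes, 7.64% of all genes passed as lower, and so did 1 of the 9 markers, Neurod2 (−0.36, limma adjusted p = 0.0362). With libraries weighted by their fit (array weights), 20.1% of all genes passed as lower, and again Neurod2 did (−0.34, limma adjusted p = 0.0228). Of 14 genes of inhibitory neurons 3 were higher, the neuropeptide genes Sst, Npy and Vip, and 0 lower, with summed levels of 1159 to 1482 and 1603 to 2084 TPM. Without Sst, the most abundant of them, the sums overlapped, at 512 to 818 and 749 to 887 TPM, and Gad1, Gad2 and Slc32a1, which make and load GABA, did not pass (limma adjusted p = 0.630, 0.317 and 0.952). Of 10 tested striatal genes, which matter for Bcl11b and Foxp2, 1 was lower and 0 higher. Their summed level over 14 listed genes was 160 to 231 TPM in controls and 159 to 198 TPM in miR-130a libraries, and the striatal factors Six3 and Isl1 were near 0, at up to 0.12 and 0.63 TPM. Of 10 astrocyte genes 1 was lower, with summed levels of 1877 to 2230 and 1679 to 2116 TPM, and of 10 oligodendrocyte genes 0 passed in limma (3 at an unadjusted p under 0.05), with 2151 to 3871 and 1339 to 3695 TPM. Mitochondrially encoded genes took 13.05% to 16.4% of TPM in controls and 16.02% to 19.9% in miR-130a libraries. The part of these differences in the marker values was not tested.

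The genes whose pattern over the 10 libraries was most like the mean of the 9 standardized markers were B4galt6, Nrxn3, Prkce, Nbea and Akap6, with Pearson r of 0.96 each. Their Spearman rank correlations lay between 0.84 and 0.96. Without control 9 and miR-130a library 17, the 2 libraries farthest from the median, r was between 0.83 and 0.95. No p is given, since they were picked for the highest r among all tested genes, and all values of a library share its scaling. The limma adjusted p of these 5 genes was between 0.940 and 1.00. Since they were picked to follow the mean of the markers, these p-values are no separate result. With group means removed, the genes most like each marker were Fto and Ppp2r5d for Slc17a7, Actr3b and Car10 for Neurod2, Lyrm4 and Blmh for Neurod6, App and Disp2 for Tbr1, and Rnf126 and Mgat5b for Cux2. They were Lyrm2 and Tpr for Rorb, Morf4l1 and Sgtb for Fezf2, Zfp12 and Abca5 for Bcl11b, and Acbd3 and Zfp599 for Foxp2. These r-values lay between 0.94 and 0.99 over 10 libraries and were not recomputed without control library 9. Between markers, r with group means removed could change without it. It went from 0.71 to 0.16 for Slc17a7 with Neurod2, and from 0.72 to 0.87 for Bcl11b with Foxp2.

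**Figure D5:**
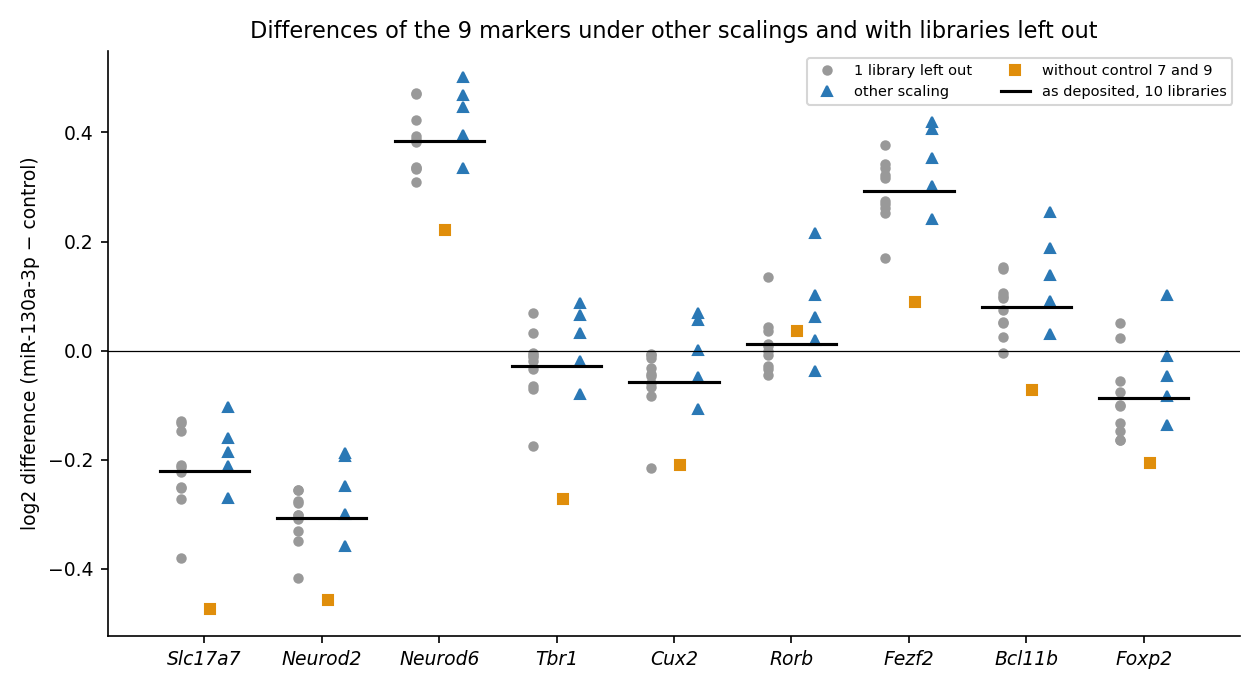
Log2 difference (vertical axis) of each of the 9 markers as deposited (black line), with 1 library left out (grey), without control libraries 7 and 9 (orange) and under 5 other scalings (blue). Slc17a7 and Neurod2 stay below 0 and Neurod6 and Fezf2 above 0 in all of these settings, while the other 5 markers take both signs.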

How the data were processed

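RNA was sequenced from mPFC punches as stranded poly(A) libraries, with an RNA integrity (RIN) of 6.5 or more, per the labels' protocols. The authors deposited TPM per gene and library. fastp, HISAT2, RSEM and DESeq2 with the build GRCm39 are named per the submitters' processing notes, with versions and roles not given in the sources used here. The 2 columns of the authors' group means were not used. TPM keeps no depth, so no counting interval was computed.

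Values were analysed as log2(TPM + 1), a scale that understates changes of low genes, with limma 3.58.1 (lmFit and trended eBayes; R 4.3.3, data.table version 1.17.8), 5 against 5 libraries, 2-sided and without covariates, and tested on simulated data. Library numbers run in separate blocks, so anything that followed them cannot be told apart from the group. Exact permutation p-values are unadjusted, and the smallest possible is 0.00794. UTR matches used gene identifiers and GENCODE M21 (GRCm38), which is not the processing build, so no coordinates are given. Site search and figures used Python 3.11.15, numpy 2.4.6, pandas 2.3.3 and matplotlib 3.10.9.

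The 9 markers and all lists were chosen with earlier results of these data known. Named were the markers, per list of excitatory genes those past the threshold and the 2 of lowest p among the rest, and the genes most like the markers, with predicted models left out. The 2 genes of lowest p in each list of other cells fell under the same rule but are named only beside a result they touch, and Vip, Six3, Isl1, Gad1, Gad2 and Slc32a1 were chosen after their values were seen. Alternatives were pseudocounts, filters, scalings, variance models, the permutation test and libraries left out.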

Additional observations from a re-analysis of the deposited data

Results flagged for a closer look

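Cux2 in control library 9 was at 16.12 TPM, far below the other 4 controls, by a gap of 0.784 of the whole control range. Chance alone marks about 1 in 20 groups in this way, and 18 groups, the 9 markers in both conditions, were looked at.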

How the results depend on the processing

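No paired analysis was possible because the groups share no library numbers. Markers past the threshold numbered 0 as deposited and 2 after median-ratio scaling (2 higher), 2 after quantile normalization (2 higher), 1 after centring on pan-neuronal genes (1 lower), 1 with array weights (1 lower) and 2 without control libraries 7 and 9 (2 lower). Leaving out 1 library at a time gave 0 to 1, with 0 to 1 lower and 0 to 1 higher. Of all tested genes, 2.19% passed as higher as deposited, 5.52% after median-ratio scaling, 6.83% after quantile normalization and 4.44% with array weights. Passing as lower were 11.3% as deposited, 7.64% centred on pan-neuronal genes, 20.1% with array weights and 15.6% without control libraries 7 and 9. Leave-outs of 1 library had 7.07% to 18.6% of all genes lower and 0.931% to 3.18% higher. In the 4 other lists together, 3 genes were lower and 1 higher as deposited. There were 5 higher after median-ratio scaling, 4 higher after quantile normalization, 6 lower and 2 higher with array weights, and 7 lower without control libraries 7 and 9. With 1 library left out, 2 to 8 were lower, 8 without control 9, and 1 to 2 higher. Signs turned for Tbr1 (0.088 after median-ratio scaling, 0.066 after quantile normalization, 0.032 without mitochondrially encoded genes; −0.174 to 0.069 leaving out 1 library), Cux2 (0.056, 0.069 and 0.0016 under the same settings), Rorb (−0.038 centred on pan-neuronal genes; −0.045 to 0.135 leaving out 1 library), Foxp2 (0.103 after quantile normalization; −0.165 to 0.050 leaving out 1 library) and Bcl11b (−0.072 without control libraries 7 and 9; −0.0036 to 0.153 leaving out 1 library). The causes were not tested. Signs of Slc17a7, Neurod2, Neurod6 and Fezf2 held in all 24 alternatives run, and pseudocount, filter, trend and robust moderation changed no marker's call. Rorb and Foxp2, below the filter of 5 TPM, have no value there. The depth behind the TPM values is unknown.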
